A study of Mus musculus with 24 samples.

Results

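The postsynaptic density is the protein meshwork beneath the membrane of excitatory synapses. Its scaffolds hold glutamate receptors, adhesion molecules, kinases and regulators of the actin cytoskeleton in place, and it is densest in the dendritic spines of cortical pyramidal neurons. MAGUK proteins bind receptor tails, SAPAP proteins join them to Shank proteins, Homer proteins connect Shanks to metabotropic glutamate receptors, and CaMKII and calcineurin add and remove phosphate groups in response to calcium. The set described here holds 33 of the 57180 genes of the deposited table, picked by gene symbol from a fixed list of postsynaptic scaffold, adhesion and signalling genes. All 33 passed the filter on low values, as did 16578 genes in all. The rule itself uses no measured value, though the set was proposed with earlier results of these data known.

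RNA was sequenced in bulk from frozen punches of frontal cortex of male wild-type C57BL/6 mice. Mice aged 4 weeks were kept on a reversed light cycle and injected intraperitoneally once a day for 28 days. The vehicle group received the vehicle alone, the sarcosine group 100 mg/kg sarcosine, the memantine group 20 mg/kg memantine, and the combination group both drugs at these doses. Sarcosine is known as an inhibitor of a glycine transporter and memantine as a channel blocker of NMDA receptors, so the comparisons ask how drugs acting on opposite sides of NMDA receptor function alter cortical RNA alone and together. Each group had 6 libraries, 24 in all. The labels name no batch or date and do not say whether each library came from its own animal, so p-values measure the spread between these samples.

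The libraries held 12678114 to 21844579 reads assigned to genes. Sarcosine libraries (17008198 to 21844579) were all deeper than combination libraries (14700861 to 15653093). The tissue label was checked with marker genes. Slc17a7, which loads glutamate into synaptic vesicles, had a median normalised value of 31235 and reached its lowest, 3901, in sarcosine replicate 1. Tbr1, a transcription factor of cortical projection neurons, ranged from 784 to 3975. RNA of neighbouring structures was also present to different degrees: the striatal receptor gene Drd1 ranged from 126 to 1313, the olfactory bulb gene Cdhr1 from 71.2 to 3464, the myelin gene Mbp from 12037 to 128952, and the choroid plexus gene Ttr from 0.897 to 52720. In bulk RNA, fewer cells of a type and less RNA per cell cannot be told apart.

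Promoters are shown for the genes at the ends of the spread between libraries described below. Of the genes with a RefSeq promoter window, Cnksr2 and Iqsec2 rose most steeply with cortical excitatory markers, and Akap5 and Homer3 went against them most steeply. The stretches are the 250 bases before the most upstream RefSeq start on build GRCm38.p6, written 5′ to 3′ on the strand of the gene, and capitals mark GC boxes (GGGCGG or its reverse complement CCGCCC). Cnksr2 lies at chrX:158043281-158043530 on the minus strand. On the plus strand, Iqsec2 lies at chrX:152144018-152144267, Akap5 at chr12:76324641-76324890 and Homer3 at chr8:70282749-70282998.
Cnksr2: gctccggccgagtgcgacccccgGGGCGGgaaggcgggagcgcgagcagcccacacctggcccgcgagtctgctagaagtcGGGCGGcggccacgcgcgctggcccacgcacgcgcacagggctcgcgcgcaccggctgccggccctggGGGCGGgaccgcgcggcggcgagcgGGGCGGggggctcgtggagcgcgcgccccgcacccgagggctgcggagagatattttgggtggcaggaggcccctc
Iqsec2: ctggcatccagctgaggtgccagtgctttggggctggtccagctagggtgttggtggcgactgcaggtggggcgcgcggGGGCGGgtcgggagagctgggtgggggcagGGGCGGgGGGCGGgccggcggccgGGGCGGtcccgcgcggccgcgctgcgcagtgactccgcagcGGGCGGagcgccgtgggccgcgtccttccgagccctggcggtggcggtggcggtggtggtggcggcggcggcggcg
Akap5: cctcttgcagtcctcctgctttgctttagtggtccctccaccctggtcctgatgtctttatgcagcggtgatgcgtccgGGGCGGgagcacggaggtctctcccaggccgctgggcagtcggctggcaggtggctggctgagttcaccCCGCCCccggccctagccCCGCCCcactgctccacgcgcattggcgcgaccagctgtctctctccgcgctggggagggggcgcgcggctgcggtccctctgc
Homer3: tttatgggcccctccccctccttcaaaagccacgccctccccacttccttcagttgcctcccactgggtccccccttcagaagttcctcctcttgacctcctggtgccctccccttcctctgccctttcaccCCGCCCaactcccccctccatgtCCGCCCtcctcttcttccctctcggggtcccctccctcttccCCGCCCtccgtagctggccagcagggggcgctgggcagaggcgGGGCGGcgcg
The Cnksr2 and Iqsec2 stretches held 4 and 5 GC boxes and the Akap5 and Homer3 stretches 3 and 4, so the ends were not set apart by this count. A second start of Cnksr2 had 3 boxes in its 250 bases, and a second start of Iqsec2 had 0. GC content of the printed stretches was 79.6% for Cnksr2, 80.0% for Iqsec2, 70.0% for Akap5 and 68.0% for Homer3. RefSeq promoter windows were matched for 28 of the 33 genes, 54 windows in all. A GC box on either strand stood in 29 of those windows (53.7%), against 10756 of 32851 windows of all genes (32.7%). The half-site TGACG of the cyclic AMP response element stood in 5 windows (9.26%, against 17.8% of all windows), and the full element TGACGTCA in none of the 54 (1.55% of all windows). These matches describe letters in a window and were not tested.

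Levels spanned a wide range across the set when taken per kilobase of the longest annotated transcript. That transcript was taken whatever its type and may not be the expressed form, so orders between genes depend on this choice. Camk2a, the alpha subunit of CaMKII, was the most abundant, with a vehicle level of 9936 ± 2103 normalised units per kilobase (SD, n = 6). Ppp3ca, the catalytic alpha subunit of calcineurin, followed with 5050 ± 924, then Agap2, an Arf GTPase-activating protein that also enhances phosphoinositide 3-kinase, with 4244 ± 320. The vehicle SDs of Ppp3ca and Agap2 overlap, so their order is not firm. Camk2b stood at 3077 ± 453, and Camk2g and Camk2d, the other two CaMKII subunit genes, at 883 ± 298 and 394 ± 67.7. Among the MAGUK genes, Dlg4, which encodes PSD-95, led with 2728 ± 350, well above Dlg2 at 780 ± 87.5, Dlg3 at 756 ± 70.5 and Dlg1 at 453 ± 54.4. Dlg2 and Dlg3 did not differ beyond their spread.

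The SAPAP genes, whose proteins bind the guanylate kinase domain of MAGUKs, were ordered Dlgap3 (1939 ± 536 per kilobase), Dlgap1 (1519 ± 257), Dlgap4 (1327 ± 252) and Dlgap2 (170 ± 34.5) in vehicle, where the intervals of the first 3 overlap. Shank1, the scaffold layered beneath them, stood at 1036 ± 247. Homer2 and Homer3 were low, at 128 ± 20.2 and 41.2 ± 14.1 per kilobase, and Homer3 was the lowest of the 33 genes. Nlgn2, the neuroligin of inhibitory synapses, stood at 1016 ± 85.6, and Nlgn1, its relative at excitatory synapses, at 101 ± 10.2. Ctnnd2, a delta-catenin that binds cadherins, stood at 792 ± 126.

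Regulators of small GTPases and actin ran from the high level of Agap2, above, down to that of Sipa1l3. Baiap2, an actin-regulating effector of Rac, had a vehicle level of 1548 ± 259 per kilobase. Kalrn, an exchange factor for Rac, stood at 769 ± 168, and Cnksr2, a scaffold that binds PSD-95, at 530 ± 128. The Arf exchange factors Iqsec1 and Iqsec2 reached 534 ± 76.7 and 607 ± 131. Of the Rap GTPase-activating proteins, Sipa1l1 stood at 790 ± 140 and Sipa1l3 at 137 ± 18.1. The remaining scaffolds were Begain (942 ± 177), Anks1b (683 ± 66.8), Magi2 (272 ± 44.7), Lrrc7 (142 ± 16.8) and Grip1 (81.5 ± 9.08), and the anchoring protein gene Akap5, which brings kinases and calcineurin to the membrane, stood at 294 ± 25.3. Between the longest coding sequences of relatives within the set, the longest identical run was 32 bases, for Camk2a with Camk2b and Iqsec1 with Iqsec2. Untranslated regions, other isoforms and relatives outside the set were not compared, and mixing of reads was not tested. Whether counting used strand is not given in the sources used here, so reads of overlapping antisense genes cannot be told apart.

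Libraries of the same group differed more than the groups did. Camk2a had normalised values of 32409, 50179 and 60925 (lowest, median and highest) in vehicle, 30920, 56104 and 69781 in sarcosine, 38063, 54290 and 60448 in memantine, and 35028, 52441 and 56156 in combination. Both the lowest and the highest library of the 24 belonged to the sarcosine group, replicates 1 and 2, and all groups overlapped. Cnksr2 had the widest span, from 1677 in sarcosine replicate 4 to 5562 in sarcosine replicate 2, a ratio of 3.32. Dlg3 had the narrowest, from 3494 in combination replicate 1 to 4369 in vehicle replicate 1, a ratio of 1.25. The SD within groups on the log2 scale had a median of 0.241 over the 33 genes, close to the 0.247 of all tested genes, and ran from 0.10 for Dlg3 to 0.51 for Cnksr2.

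**Figure D1:**
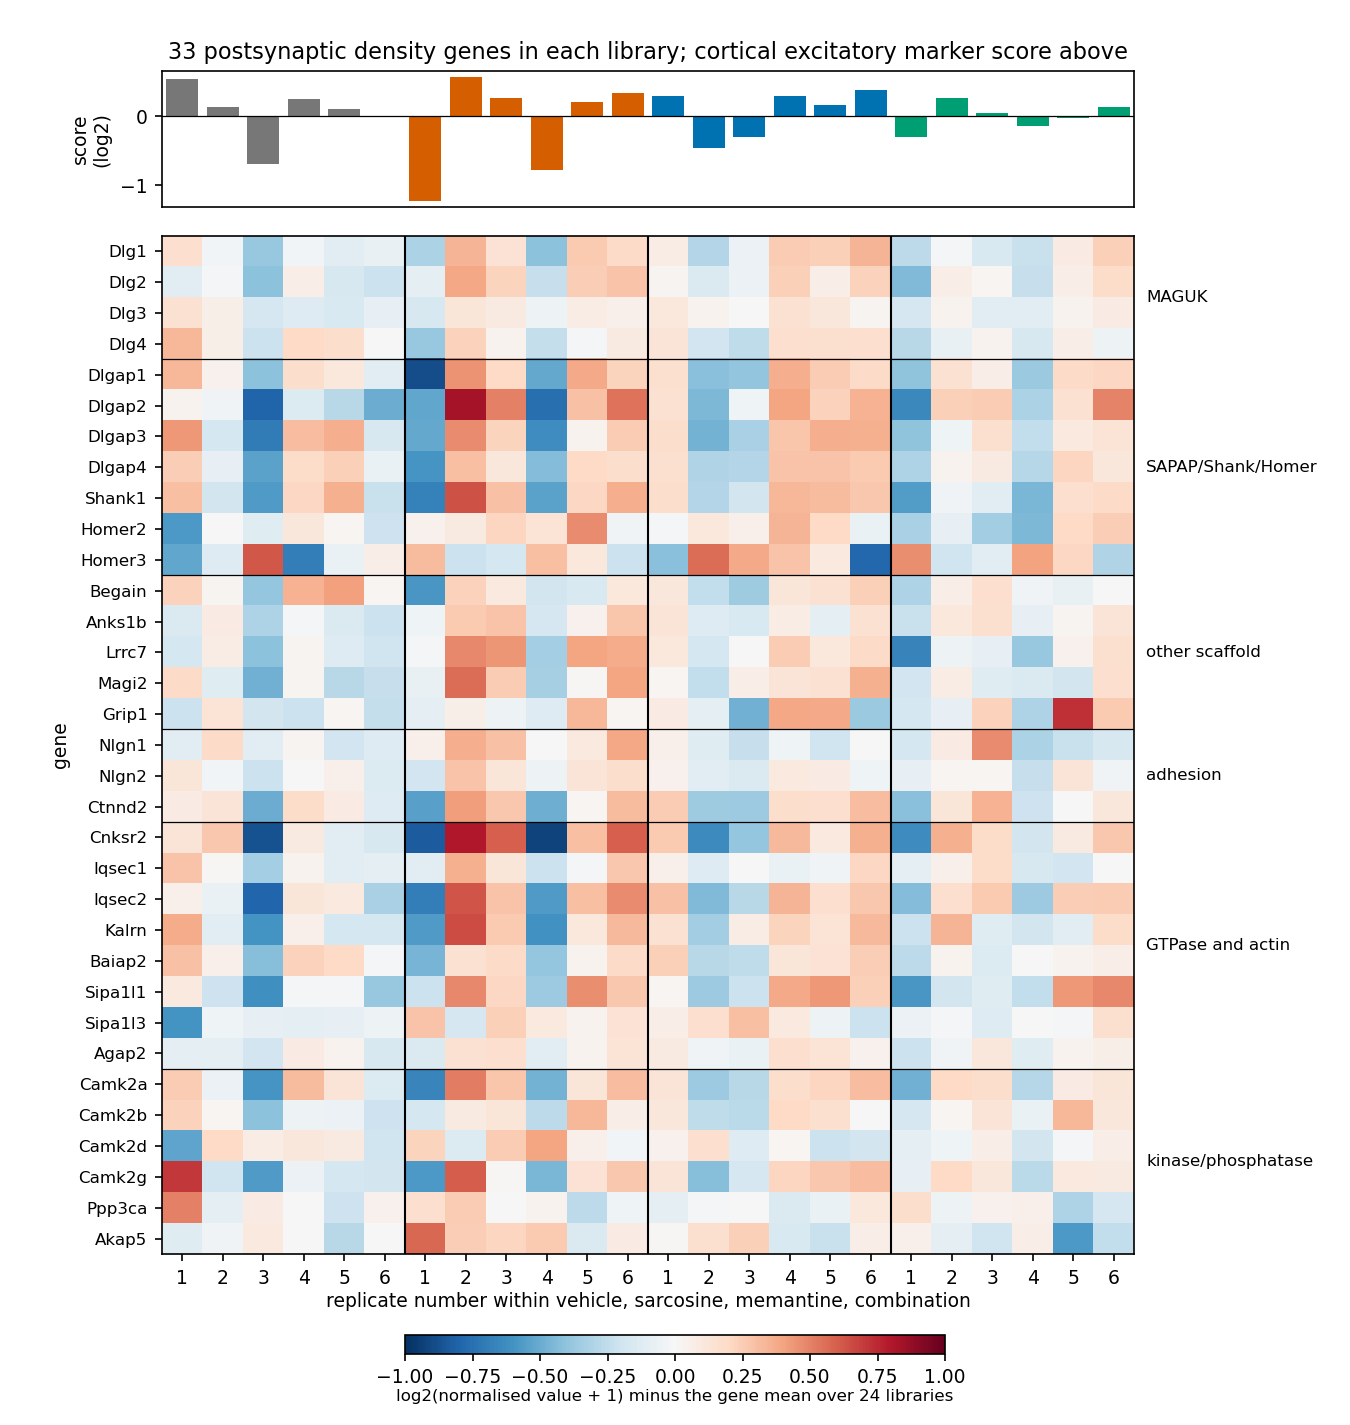
Colours give log2(normalised value + 1) of the 33 genes minus the gene's mean over 24 libraries, with genes grouped by role and libraries by treatment; bars above give the cortical excitatory marker score of each library in log2 units. Columns with a low score, such as sarcosine replicate 1 (-1.23) and vehicle replicate 3 (-0.69), are blue for most genes, while Homer3 and Akap5 are red in sarcosine replicate 1.

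Values of most genes of the set moved with cortical excitatory markers. The mean centred log2 value of 16 such markers, none of them in the set, was used as a score for each library, and its slope was estimated with the group means held in the model. At an adjusted p under 0.05 in limma, 25 of 33 genes rose with the score and 3 went against it, where 23.7% of all tested genes rose and 23.1% went against it. The median slope was 0.41 log2 units per unit of score for the set and -0.0089 for all tested genes. A straight line on the score took up a median of 66.3% of a gene's sum of squares within groups in the set, against 21% over all tested genes, and over 50% for 26 of the 33 genes. Without sarcosine replicate 1, the library with the lowest score, 25 rose and 2 went against it (21.5% and 20.5% of all tested genes).

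Slopes differed widely within families. The steepest was that of Cnksr2, 1.06 ± 0.0749 (SE, limma adjusted p = 8.60e-11), followed by Dlgap2 at 0.86 and Iqsec2 at 0.82. All 4 SAPAP genes rose with the score, with slopes from 0.60 for Dlgap4 to 0.86 for Dlgap2, and Shank1 rose with a slope of 0.75. Camk2a and Camk2g had slopes of 0.72 and 0.68, Camk2b one of 0.34, and Camk2d a slope of -0.19 that did not pass the test (limma adjusted p = 0.0560). The MAGUK genes had shallower slopes of 0.46 for Dlg1, 0.37 for Dlg4, 0.36 for Dlg2 and 0.16 for Dlg3, and all 4 passed the test.

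Genes against the score were Homer3, with a slope of -0.64 ± 0.134 (SE, limma adjusted p = 0.000385), Akap5 with -0.24 (adjusted p = 0.0141) and Sipa1l3 with -0.18 (adjusted p = 0.0329). Akap5 and Sipa1l3 missed the threshold without sarcosine replicate 1 (limma adjusted p = 0.126 and 0.0769), where Camk2d passed it with a slope of -0.25 (adjusted p = 0.0497). Homer3 kept the call there, with a slope of -0.84. Besides Camk2d, the genes whose slope did not pass in either direction over all libraries were Ppp3ca, Nlgn1, Homer2 and Grip1.

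**Figure D2:**
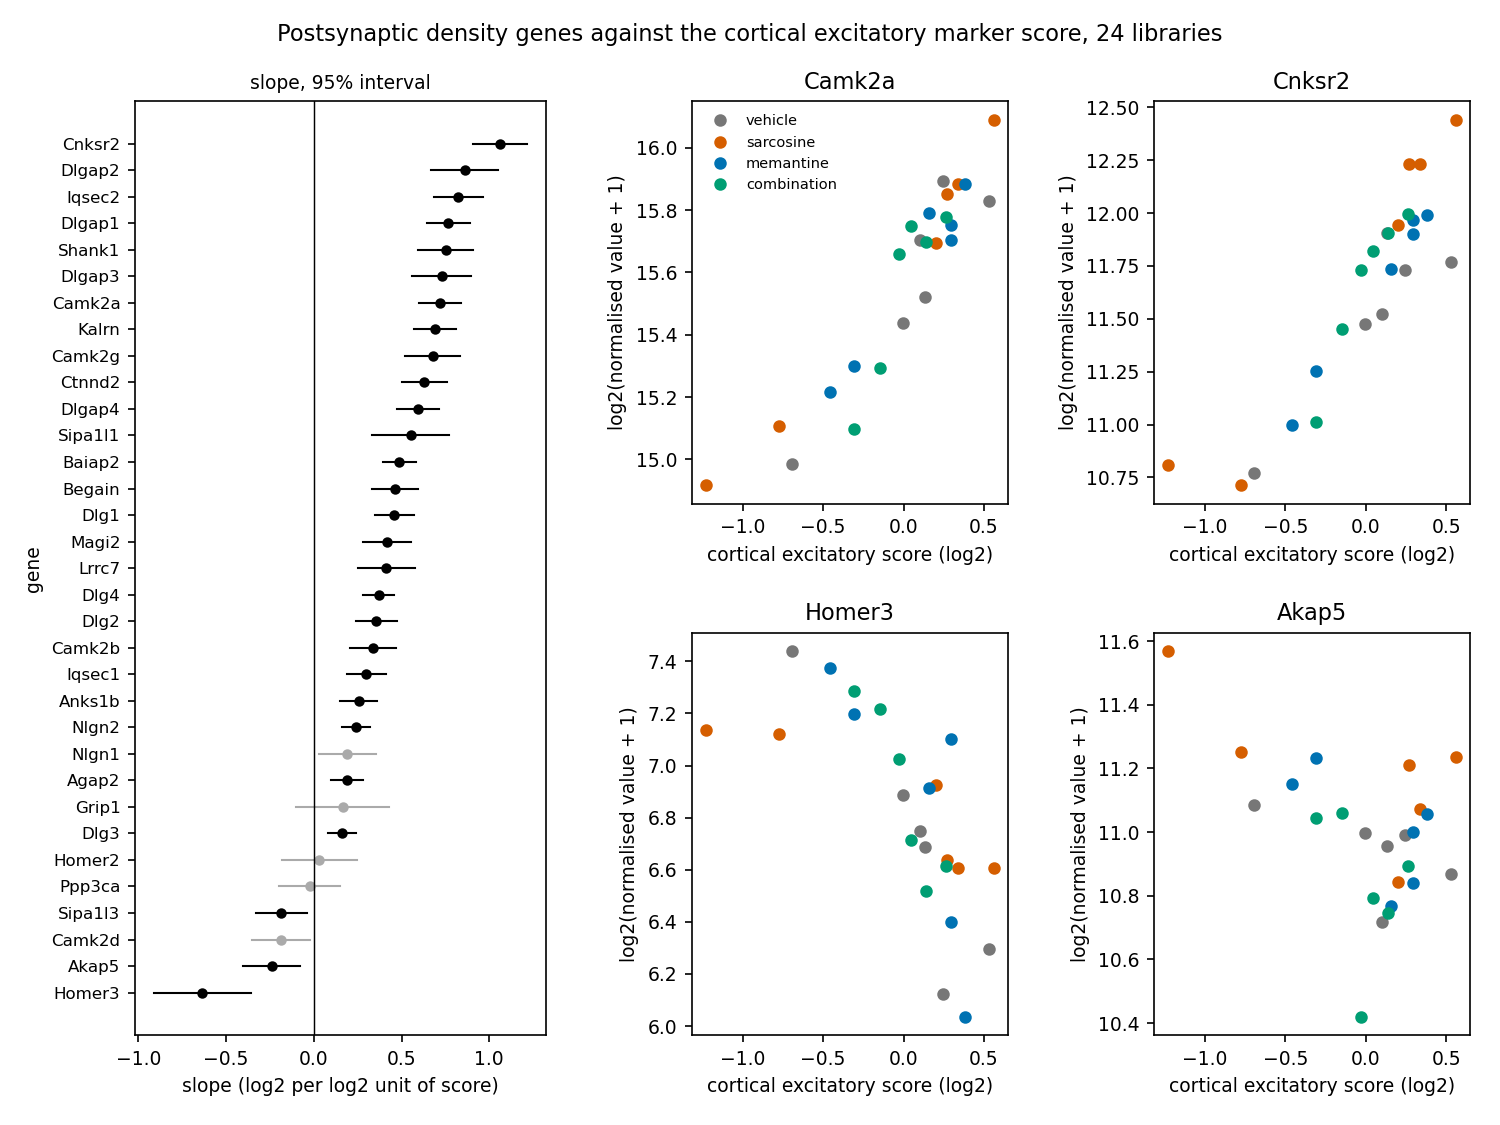
Left, the slope of each gene's log2(normalised value + 1) on the cortical excitatory marker score with its 95% interval, black where the adjusted p is under 0.05 and grey otherwise; right, Camk2a, Cnksr2, Homer3 and Akap5 in the 24 libraries against the score, coloured by treatment. Slopes run from -0.64 for Homer3 to 1.06 for Cnksr2, and points of the 4 groups are mixed along each cloud.

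Slopes were also fitted on the striatal, oligodendrocyte and olfactory bulb scores. Against the striatal score 25 genes fell and 3 rose, where 21.5% and 20.6% of tested genes did so, and the 3 that rose were Akap5 (0.22 per unit), Homer3 (0.29) and Sipa1l3 (0.11). Against the oligodendrocyte score 26 fell and 2 rose, Akap5 and Homer3 (background 21.6% and 21.2%). These scores share libraries with the cortical score: sarcosine replicate 1 had the lowest cortical score (-1.23) and the highest striatal score (1.96). With the olfactory bulb score 4 genes rose, Sipa1l1 (0.18), Grip1 (0.16), Homer2 (0.098) and Camk2b (0.096), and Akap5 fell (-0.11), where 6.11% of tested genes rose and 6.34% fell. The cortical score had a median of 0.12 in vehicle, 0.24 in sarcosine, 0.22 in memantine and 0.010 in combination. Its means had the other order for sarcosine against vehicle, -0.11 against 0.053. That difference of means had an adjusted p of 0.898 (exact permutation test, two-sided, 25 tests of library measures in the family).

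The drugs were compared next, on log2(value + 1), with 6 contrasts from one fit over the 24 libraries. No gene of the set passed an adjusted p of 0.05 in limma in any of them. In none of the 5 contrasts between groups did all libraries of one group lie above all of the other for a gene of the set. Among all tested genes this held for 4.11% in sarcosine against vehicle, 2.2% in memantine against vehicle and 1.15% in the combination against vehicle, 0.386% for the combination against sarcosine and 0.531% for the combination against memantine. Among all tested genes 4.72% rose and 4.62% fell with sarcosine against vehicle. Sarcosine against vehicle called the most genes of the 6 contrasts, 1548 of all tested genes, and still gave 0 of 33 here. That all-gene count fell to 187 of 16287 after the length and GC correction described below. In the set 8 genes had an unadjusted p under 0.05 (24.2%, against 22.3% of tested genes). The edgeR test on recovered reads also called 0, beside 1615 of 16578 tested genes. DESeq2 called 1, Lrrc7, higher with sarcosine (6.64% of tested genes). Leaving out sarcosine replicate 4 gave 3 genes called higher in limma (6.18% of tested genes), and leaving out sarcosine replicate 2 gave 1 (3.58%). The median fold change of the set was 0.11 on the log2 scale against -0.0032 for all tested genes, and 26 of 33 were positive. As single libraries were left out, that median ran from 0.051 without vehicle replicate 3 to 0.17 without sarcosine replicate 4, and it was 0.070 without sarcosine replicate 2. Fold changes ran from -0.19 for Begain, whose protein binds PSD-95, to 0.44 for Dlgap2, and the median 95% interval reached 0.28 to either side.

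Lrrc7 encodes densin, a scaffold that binds CaMKII. Its normalised values were 853, 1017 and 1190 (lowest, median and highest) in vehicle, 893, 1473 and 1575 in sarcosine, 1000, 1216 and 1346 in memantine and 713, 1082 and 1264 in combination. In sarcosine 5 of 6 libraries lay above the vehicle mean, replicate 4 was the lowest of the group, and the groups overlapped. The log2 fold change with sarcosine was 0.35 ± 0.139 (SE, limma adjusted p = 0.117).

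Sipa1l3 had the smallest p with sarcosine. It measured 770, 1101 and 1133 in vehicle, 1040, 1269 and 1422 in sarcosine, 1005, 1232 and 1438 in memantine and 1066, 1154 and 1305 in combination. Vehicle replicate 1 alone gave the 770, and the other vehicle libraries lay at 1095 or above. Sarcosine replicate 2, at 1040, lay below those other vehicle libraries, so the sarcosine and vehicle ranges overlapped. The memantine and combination ranges overlapped vehicle too. The log2 fold change with sarcosine was 0.26 ± 0.0954 (SE, limma adjusted p = 0.0839).

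Anks1b, whose protein binds PSD-95 and can move to the nucleus, measured 4532, 5069 and 5944 in vehicle, 4985, 6245 and 6832 in sarcosine, 5041, 5575 and 6216 in memantine and 4794, 5870 and 6263 in combination. Sarcosine replicate 4 was the low one of its group, and all groups overlapped. The log2 fold change with sarcosine was 0.23 ± 0.0896 (SE, limma adjusted p = 0.109).

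Dlg2, which encodes a close relative of PSD-95, measured 5034, 6080 and 7001 in vehicle, 5699, 7853 and 8734 in sarcosine, 6034, 6903 and 7901 in memantine and 4930, 6900 and 7595 in combination. The low ends came from vehicle replicate 3, sarcosine replicate 4, memantine replicate 2 and combination replicate 1, each the library with the lowest or second lowest cortical score of its group. The log2 fold change with sarcosine was 0.28 ± 0.114 (SE, limma adjusted p = 0.137).

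Memantine alone called 0 of 33 genes in limma, where 0.0121% of tested genes rose and none fell. In the set 1 gene had an unadjusted p under 0.05 (14.7% of tested genes). Neither edgeR nor DESeq2 called any of the 33, beside 3 and 430 of all tested genes. The median fold change was 0.11 and 27 of 33 were positive. The median fell to 0.038 without vehicle replicate 3 and 0.074 without memantine replicate 4. Sipa1l3 had the smallest p (0.22 ± 0.0954 SE, limma adjusted p = 0.279), followed by Dlg3, Homer2 and Dlg2. Dlg3, which encodes the MAGUK SAP102, measured 3499, 3642 and 4369 in vehicle, 3512, 4088 and 4269 in sarcosine, 3925, 4125 and 4351 in memantine and 3494, 3833 and 4143 in combination. All 6 memantine libraries lay above the vehicle mean, yet vehicle replicate 1 was higher than every one of them. Its log2 fold change with memantine was 0.13 ± 0.0626 (SE, limma adjusted p = 0.350).

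Homer2 measured 1022, 1457 and 1647 in vehicle, 1485, 1646 and 2116 in sarcosine, 1451, 1608 and 1922 in memantine and 1112, 1327 and 1804 in combination. The lowest vehicle library was replicate 1, which was also lowest for Sipa1l3, and all groups overlapped. Its log2 fold change was 0.28 with sarcosine (limma adjusted p = 0.174) and 0.23 with memantine (adjusted p = 0.405), and 6 of 6 libraries of either group lay above the vehicle mean.

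The combination called 0 of 33 genes against vehicle (0.139% of tested genes rose and 0.404% fell). In the set 0 genes had an unadjusted p under 0.05 (14.2% of tested genes). Both edgeR and DESeq2 called 0 of the 33, beside 70 and 499 of all tested genes. The median fold change was 0.014, and 22 of 33 were positive. Its sign turned on single libraries: it ran from -0.011 without vehicle replicate 3 to 0.074 without combination replicate 1, and was negative in 4 of 24 such fits. Anks1b (0.14), Sipa1l3 (0.15), Dlg4 (-0.17) and Grip1 (0.23) had the smallest p, with limma adjusted p from 0.507 to 0.574. Dlg4 measured 13844, 17422 and 20271 in vehicle, 12342, 16233 and 18877 in sarcosine, 13498, 17753 and 18082 in memantine and 13281, 15410 and 16798 in combination. No combination library reached the vehicle mean, though the ranges overlapped. Grip1, a PDZ protein that binds AMPA receptors, measured 406, 418 and 526 in vehicle, 439, 475 and 604 in sarcosine, 344, 477 and 625 in memantine and 386, 508 and 795 in combination. Its highest values in the treated groups came from sarcosine replicate 5, memantine replicate 4 and combination replicate 5, libraries with high olfactory bulb scores of 2.21, 2.01 and 2.41. Vehicle went the other way: its highest value came from replicate 2, with a low score of -1.14.

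**Figure D3:**
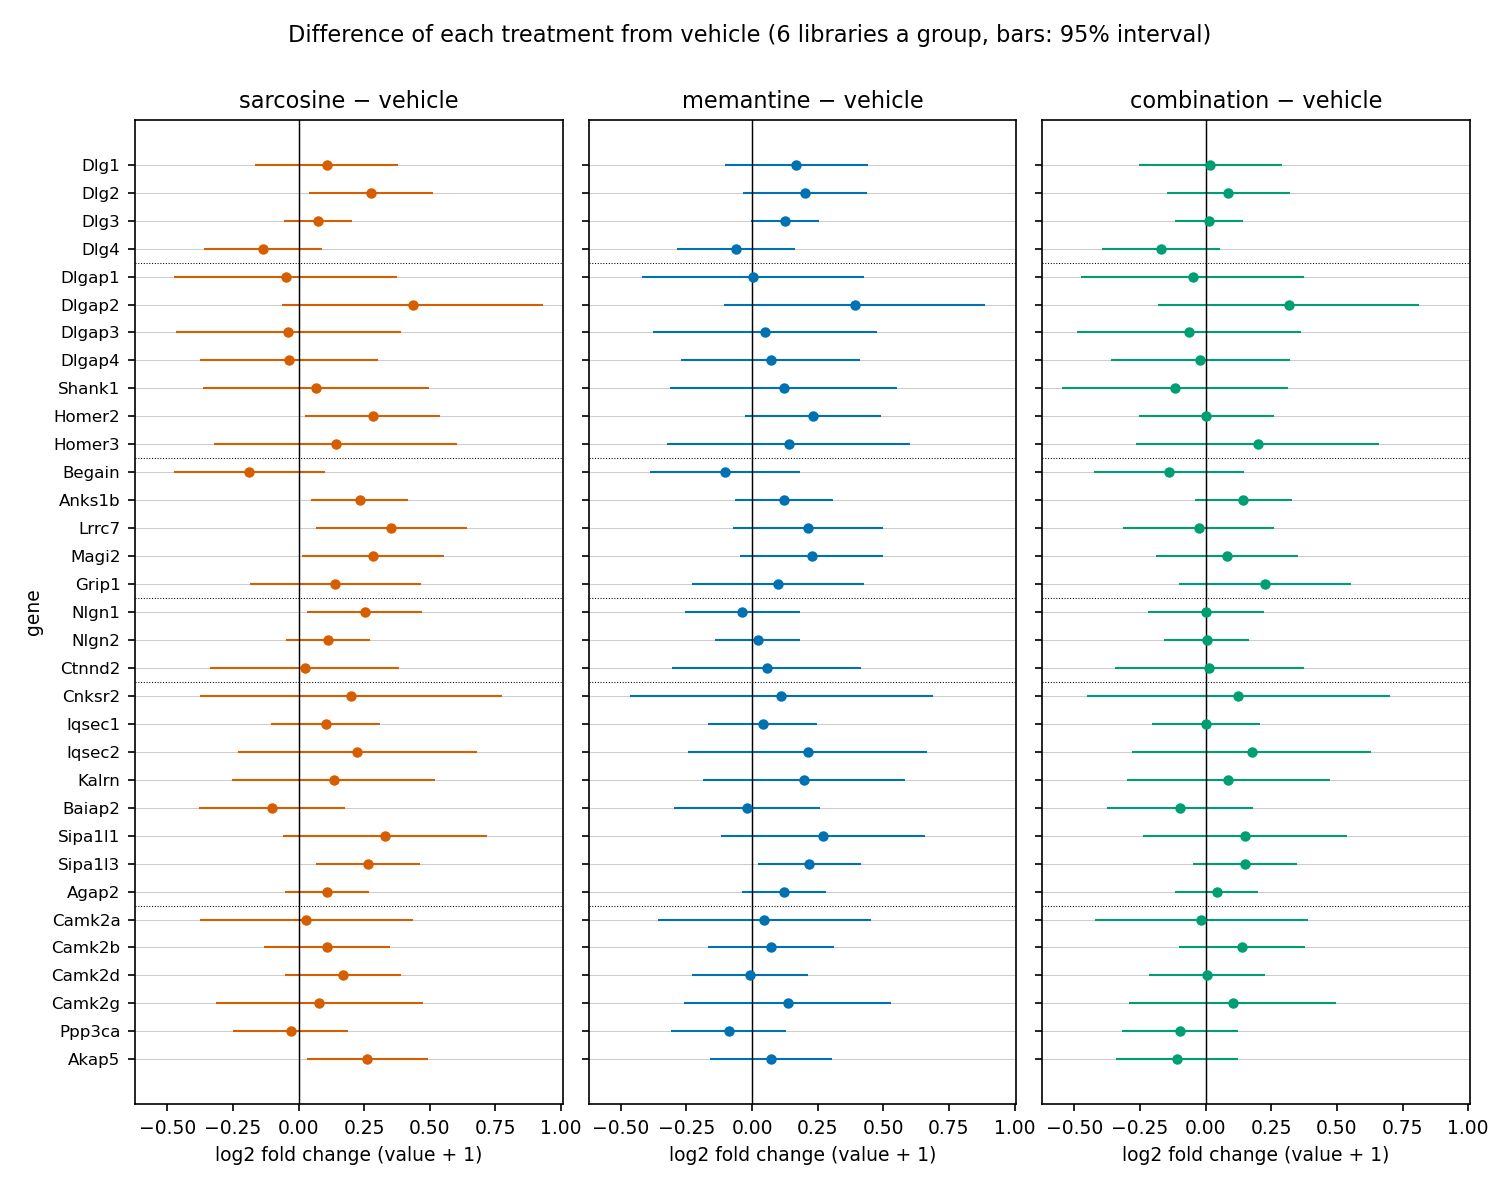
Points give the log2 fold change of each gene against vehicle, on log2(value + 1), for sarcosine, memantine and the combination with 6 libraries a group; bars are 95% intervals and dotted lines divide the roles. Points lie mostly to the right of 0 for sarcosine (26 of 33) and memantine (27 of 33), and the 3 comparisons share the vehicle libraries.

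Adding memantine to sarcosine, the contrast of combination against sarcosine, called 0 of 33 genes, as among all tested genes (0%). In the set 4 genes had an unadjusted p under 0.05 (8.70% of tested genes). None of the 33 was called by edgeR or DESeq2, beside 0 and 45 of all tested genes. The median was -0.067, and 26 of 33 were negative. It ran from -0.14 without sarcosine replicate 1 to -0.021 without sarcosine replicate 2. Akap5 measured 1682, 2010 and 2173 in vehicle, 1837, 2390 and 3038 in sarcosine, 1741, 2090 and 2407 in memantine and 1369, 1838 and 2133 in combination. Every combination library lay below the sarcosine mean, combination replicate 5 was the lowest of all 24 and sarcosine replicate 1 the highest. The log2 fold change was -0.37 ± 0.112 (SE, limma adjusted p = 0.350).

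Nlgn1 measured 1087, 1147 and 1414 in vehicle, 1236, 1423 and 1618 in sarcosine, 1056, 1170 and 1284 in memantine and 997, 1102 and 1720 in combination. Combination replicate 3 was the highest of all 24 libraries, and the groups overlapped. In combination against sarcosine the log2 fold changes were -0.25 for Nlgn1 (limma adjusted p = 0.484), -0.38 for Lrrc7 (adjusted p = 0.428) and -0.28 for Homer2 (adjusted p = 0.521). Against memantine, the combination called 0 of 33 genes (0.0543% of tested genes rose and none fell). In the set 0 genes had an unadjusted p under 0.05 (7.72% of tested genes). Both edgeR and DESeq2 called 0 of the 33, beside 10 and 61 of all tested genes. Homer2 had the smallest p there (-0.23, limma adjusted p = 0.715), followed by Dlg3 (-0.11), Lrrc7 (-0.24) and Akap5 (-0.18).

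The interaction asks whether the combination differed from the sum of its parts. It called 0 of 33 genes in limma, where 0.579% of tested genes were called positive and 1.24% negative. The edgeR test also called 0, beside 256 of all tested genes, and DESeq2 called 1, Lrrc7, lower (3.3% of tested genes). Leaving out combination replicate 6 gave 2 genes called lower in limma (3.6% of tested genes), and leaving out sarcosine replicate 4 gave 1 (3.13%). Here 7 genes had an unadjusted p under 0.05 (21.2%, against 16.8% of tested genes), 29 of 33 were negative, and the median was -0.19 against 0.012 for all tested genes. The smallest p belonged to Lrrc7 (-0.59 ± 0.196 SE, limma adjusted p = 0.104), followed by Homer2 (-0.51), Akap5 (-0.44) and Sipa1l3 (-0.33), with limma adjusted p from 0.119 to 0.189. Values of Lrrc7, Homer2 and Akap5 were highest by median in sarcosine, and their combination medians lay below those of sarcosine.

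By role, the median log2 fold change with sarcosine was 0.091 for the 4 MAGUK genes, 0.066 for the 7 SAPAP, Shank and Homer genes, 0.23 for the 5 other scaffolds, 0.11 for the 3 adhesion genes, 0.17 for the 8 regulators of GTPases and actin and 0.094 for the 6 kinase, phosphatase and anchoring genes. None of the roles held a called gene. Camk2a had a fold change of 0.03 with a 95% interval from -0.38 to 0.44. Dlg3 had the narrowest interval with sarcosine, -0.06 to 0.20.

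Transcript length moved with the sarcosine differences. The 33 genes are long: their longest transcripts had a median of 5944 bases (2608 to 11807), against 3281 for all tested genes, and 31 of 33 exceeded that median. Across 16287 tested genes with a known length, the fold change with sarcosine rose with the logarithm of length (r = 0.43, across genes, which are not independent replicates), and across the 33 genes the correlation was 0.427. Across the 33 genes it was 0.237 for memantine and -0.0802 for the combination against vehicle, beside 0.318 and 0.233 across tested genes. These comparisons share the vehicle libraries. For the combination against sarcosine it was -0.631 in the set and -0.264 across tested genes. Against memantine it was -0.409 and -0.0945, and for the interaction -0.539 and -0.398. The 11 shortest genes had a median fold change of 0.029, the 11 of middle length 0.14 and the 11 longest 0.25. With each library's trend on length and GC content removed, the median of the set with sarcosine became 0.017, and 0.025 with memantine, -0.059 with the combination and -0.024 for the interaction, with 0 genes called in all 6 contrasts. For each library, the slope of centred log2 values on log10 length was fitted over all 16287 genes, not over the set alone. This slope differed between sarcosine and vehicle libraries without overlap (0.18 against -0.23, exact permutation p = 0.00216, the smallest 924 arrangements allow, adjusted p = 0.0271 over 25 tests). It also differed between memantine (0.064) and vehicle (exact permutation adjusted p = 0.0271). In combination libraries the slope averaged -0.018 and overlapped vehicle (exact permutation adjusted p = 0.271).

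**Figure D4:**
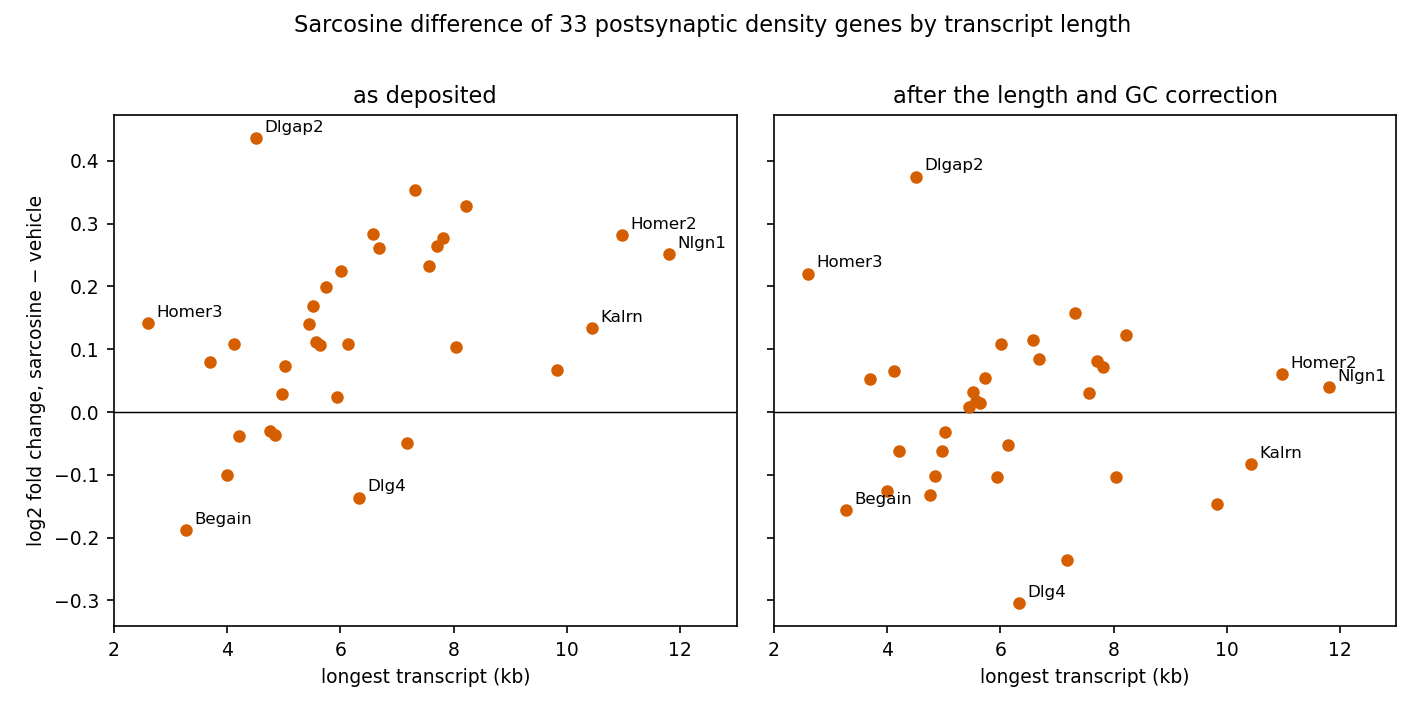
Each point is 1 of the 33 genes, placed by the length of its longest transcript in kilobases and its log2 fold change for sarcosine against vehicle, as deposited on the left and after the correction for length and GC content on the right. The median moves from 0.11 to 0.017, Dlgap2 moves from 0.44 to 0.38 and Dlg4 moves from -0.14 to -0.30.

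With the cortical excitatory score as a covariate, sarcosine against vehicle called 11 of 33 genes higher (10.3% of tested genes) and none lower, and the interaction called 6 lower (5.89%) and none higher. The 11 were Dlgap2 (0.57), Lrrc7 (0.42), Sipa1l1 (0.42), Cnksr2 (0.37), Iqsec2 (0.35), Magi2 (0.35), Dlg2 (0.33), Nlgn1 (0.28), Anks1b (0.27), Kalrn (0.24) and Nlgn2 (0.15). The 6 were Lrrc7 (-0.63), Dlgap2 (-0.59), Magi2 (-0.47), Dlg2 (-0.42), Akap5 (-0.42) and Dlg1 (-0.30). Without that covariate the same contrasts called none, and with the length and GC correction alone they called none either. With the covariate and the correction together, a fit added after seeing the data, sarcosine against vehicle called Dlgap2 (0.51, limma adjusted p = 0.00729) and Iqsec2 (0.23, adjusted p = 0.0417) higher and Dlg4 (-0.24, adjusted p = 0.0346) lower, where 2.36% of tested genes were called higher and 2.16% lower. The interaction called none there, with a smallest adjusted p of 0.0526 in limma.

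Other fits moved the counts as well. The striatal score as a covariate called 12 of 33 genes higher with sarcosine (11% of tested genes) and 5 lower in the interaction (4.46%), and library weights called 9 higher (9.97%) and 5 lower (5.62%). The oligodendrocyte score called 4 higher and 1 lower with sarcosine (7.84% and 7.27%), 1 lower in combination against sarcosine (0.0422%) and 2 lower in the interaction (3%). The olfactory bulb score called 1 higher with sarcosine (5.48%) and 1 lower in the interaction (1%). The last pair of covariates was chosen after seeing the data.

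Ratios within families were compared per length, since a ratio within a library does not depend on its scaling. Over 22 pairs of relatives and 5 contrasts, 110 exact permutation tests gave 18 unadjusted p under 0.05 and no adjusted p under 0.119. The groups did not overlap in 2 of these tests, and the share over ratios of other gene pairs was not measured. Dlg4 over Dlg2 had the clearest separation. In log2 units the ratio was 1.64, 1.78 and 2.02 (lowest, median and highest) in vehicle, 1.28, 1.38 and 1.56 in sarcosine, 1.38, 1.52 and 1.67 in memantine and 1.34, 1.58 and 1.73 in combination. All sarcosine libraries lay below all vehicle libraries, while the other two treated groups overlapped vehicle. The difference of the means, sarcosine minus vehicle, was -0.41 (exact permutation p = 0.00216, adjusted p = 0.119). It ran from -0.45 to -0.37 as single libraries were left out and was -0.38 after the length and GC correction.

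Dlgap1 over Dlgap2 gave the other complete separation, for memantine against vehicle (2.78 against 3.17 on average, exact permutation p = 0.00216, adjusted p = 0.119). With sarcosine the same ratio averaged 2.68 and overlapped vehicle. Dlg4 over Dlg1 averaged 2.59 in vehicle, 2.34 in sarcosine and 2.36 in memantine (exact permutation adjusted p = 0.119 for each against vehicle). None of these ratios passed the threshold after adjustment. A ratio shows unequal change and not which of its genes moved.

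**Figure D5:**
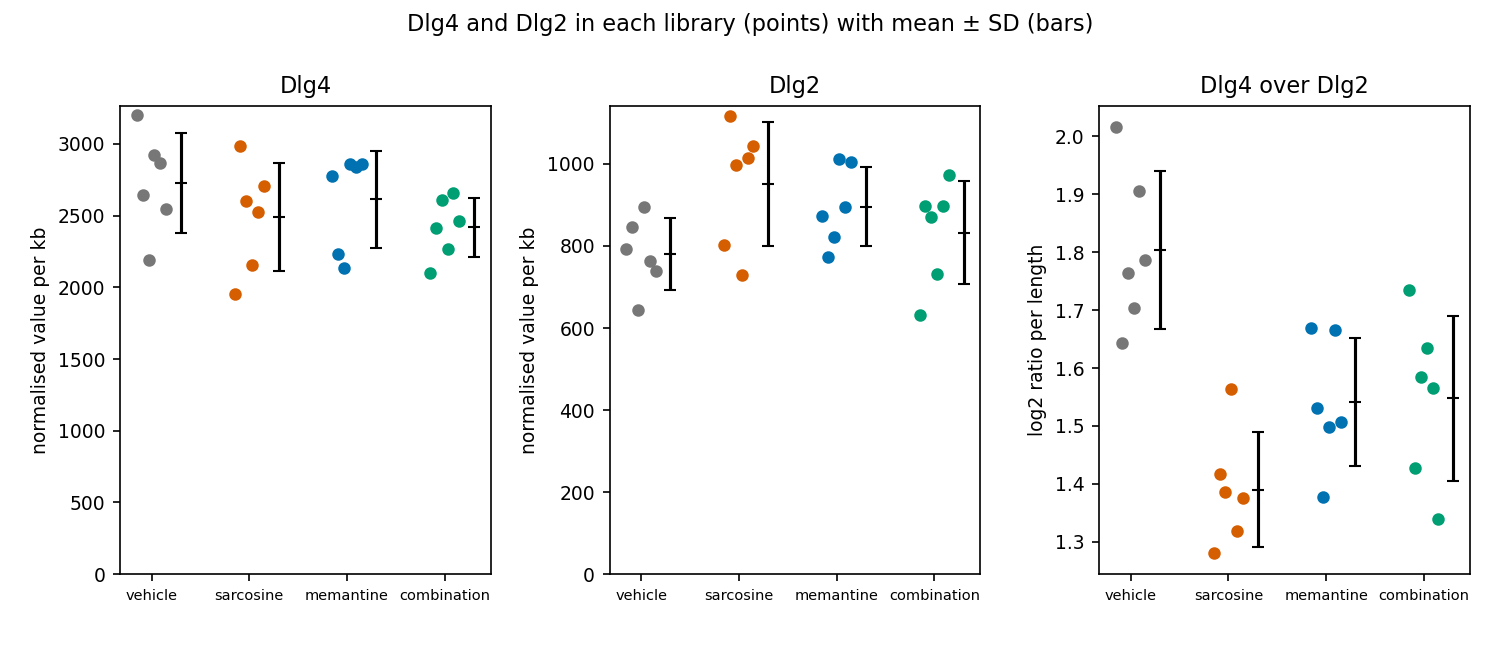
Points give each library's normalised value per kilobase of Dlg4 and Dlg2 and the log2 ratio of the first to the second, by treatment, with mean ± SD of 6 libraries as bars. The ratio is between 1.64 and 2.02 in vehicle and between 1.28 and 1.56 in sarcosine, while the groups overlap for each gene alone.

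Other postsynaptic genes were read from lists that leave out the 33, apart from Nlgn2 in the inhibitory list. With sarcosine, 3 of 38 further scaffold and associated genes rose and 2 fell in limma, beside 4.72% and 4.62% of all tested genes. Those that rose were Ppp1r9a, an actin-binding scaffold of spines (0.41, adjusted p = 0.00742), Shank3, a relative of Shank1 (0.40, adjusted p = 0.00799), and the cadherin gene Cdh2 (0.31, adjusted p = 0.0311). Those that fell were Dynll1, a dynein light chain that binds SAPAP proteins (-0.37, adjusted p = 0.0161), and Lin7b, a small PDZ protein (-0.49, adjusted p = 0.0415). Shank3 averaged 3469 ± 476 in vehicle and 4581 ± 605 in sarcosine (SD, n = 6 each), with 6 of 6 sarcosine libraries above the vehicle mean, and it was the single gene of this list called in the interaction (-0.60, limma adjusted p = 0.0328).

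With the same shares of all tested genes beside them, 3 of 46 further signalling genes rose with sarcosine and none fell: Akap11, an anchor of protein kinase A (0.34, limma adjusted p = 0.00361), Trio, an exchange factor related to kalirin (0.47, adjusted p = 0.00807), and Akap9, another kinase anchor (0.53, adjusted p = 0.0108). Of 29 further adhesion genes Adgrl3, a latrophilin, rose (0.47, limma adjusted p = 0.00811), and of 13 inhibitory postsynaptic genes Gphn, which encodes the scaffold gephyrin, rose (0.25, adjusted p = 0.0124). Median fold changes with sarcosine were 0.15, 0.056, 0.11 and 0.23 for the 4 lists, beside -0.0032 for all tested genes. None of these lists had a called gene with memantine, with the combination, or between the combination and either drug. The risen genes had longest transcripts of 3570 bases for Gphn to 13123 for Akap9, where the tested median is 3281, and the fallen Dynll1 and Lin7b had 2242 and 735. After the length and GC correction none of these called genes kept an adjusted p under 0.05 with sarcosine. Gphn moved little, from 0.25 to 0.22 (limma adjusted p = 0.129), as did Dynll1, from -0.37 to -0.31 (adjusted p = 0.327), while Shank3 moved from 0.40 to 0.24 (adjusted p = 0.160). One other gene, singled out after its values were seen, passed only after the correction: Nlgn3, a relative of Nlgn1 in the scaffold list, with sarcosine at -0.45 (limma adjusted p = 0.0379; -0.24 and 0.0584 without the correction).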

How the data were processed

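The deposited table holds, per the file headers and values, 1 normalised signal per gene and library, made by the authors by dividing read counts by a library-wide size factor. Per the submitters' processing notes, FastQC, STAR, featureCounts 1.6.0 and DESeq2 1.42.1 were used with build mm39; read length and filters are not given in the sources used here. All values (100%) came out as whole reads of their library, to a tolerance of 0.01 reads, which gave back 12678114 to 21844579 reads per library.

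Tests covered genes whose value reached 10 in 6 or more libraries, on log2(value + 1) with limma 3.58.1 in R 4.3.3 (group means, empirical Bayes with trend, two-sided, Benjamini-Hochberg adjustment over all 16578 genes). Intervals are 95%. Alternatives used edgeR 4.0.16 and DESeq2 1.42.0 on recovered reads, other scalings, weights, covariates, a length and GC correction, a replicate block and libraries left out in turn. The length and GC correction removed a loess trend (span 0.3) from each library over the 16287 genes (98.2%) with an annotated length in GENCODE, on a build other than mm39. The limma step was tested on simulated data with known changes.

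Named genes are members called in any contrast, or the 4 with the smallest p where fewer were called, with up to 4 genes per other list; Lin7b and Nlgn3 fall outside this and were named after their values were seen. The members and lists were chosen with earlier results of these data known, and the slopes and ratios were added after seeing the data.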

Additional observations from a re-analysis of the deposited data

Results flagged for a closer look

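Each of the 33 genes was examined in each group for a library far from the rest, by the gap to its nearest neighbour over the range of the group. Of 132 such tests 4 passed, and chance gives about 1 in 20. Vehicle replicate 1 accounts for 3 of them: Camk2g was highest there at 5427, with the next library at 3186, Ppp3ca was highest at 32398, with the next at 24190, and Sipa1l3 was lowest at 770, with the next at 1095. That library had the highest cortical excitatory score of its group (0.53) and the lowest striatal score (-0.85). Grip1 was highest in sarcosine replicate 5 at 604, with the next library at 498, and that library had the highest olfactory bulb score of its group (2.21). The part of these scores in the outlying values was not tested.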

How the results depend on the processing

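The count of 0 genes in all 6 contrasts held under a pseudocount of 5, no filter on low values, and upper-quartile and TMM scaling. It also held under edgeR, the length and GC correction and, in the 5 contrasts between groups, fits of the compared groups alone. For sarcosine against vehicle these fits called, in that order, 1552, 989, 1780, 1564, 1615, 187 and 980 of all tested genes. Elsewhere a 0 can say little about the set. The interaction called 0 of 37607 genes with no filter and 0 of 16287 after the correction. Combination against sarcosine called 0 genes in each of these fits. The set's count moved for sarcosine against vehicle and for the interaction. DESeq2 called 1 and 1, library weights 9 and 5, the cortical excitatory covariate 11 and 6, and the striatal covariate 12 and 5. Of the alternatives added after seeing the data, the olfactory bulb covariate called 1 and 1, and the oligodendrocyte covariate 5 (4 higher, 1 lower) and 2, with 1 more for combination against sarcosine. The cortical covariate together with the length and GC correction called 3 for sarcosine against vehicle (2 higher, 1 lower) and 0 elsewhere. As single libraries were left out, the count ran from 0 to 3 for sarcosine against vehicle (1 without sarcosine replicate 2, 3 without replicate 4, beside 3.58% and 6.18% of tested genes), from 0 to 2 for the interaction (1 without sarcosine replicate 4, 2 without combination replicate 6, beside 3.13% and 3.6%), and stayed at 0 for the other contrasts. The 10 named genes gave 24 results, the 4 with the smallest p in each contrast. Of 956 alternative values for these results, none changed sign and 32 passed the threshold. Results picked by a small p were likely to keep their sign, and other contrasts of these genes were not counted. Upper-quartile scaling turned the all-gene calls for sarcosine from 782 higher and 766 lower to 603 and 1177. Those for the interaction went from 96 and 205 to 343 and 132. With sarcosine it lowered the set's median from 0.11 to 0.067 and that of all tested genes from -0.0032 to -0.047. The labels link libraries with the same number by that number alone. Their correlations ran from -0.75 to 0.73, though all pairs numbered 5 correlated (0.33 to 0.72). Replicate 5 had the highest olfactory bulb score of each group: 0.87 in vehicle, 2.21 in sarcosine, 2.16 in memantine and 2.41 in combination. A replicate block called 0 genes of the set in every contrast, also together with the length and GC correction. The ratio of Dlg4 to Dlg2 was first examined among 5 pairs picked after their fold changes were seen; with 25 tests of library measures adjusted together with them, 50 in all, its exact permutation adjusted p was 0.0361, against 0.119 over every pair. The causes of these shifts were not tested. With 6 libraries a group, fold changes smaller than about 0.28 on the log2 scale lie within the median interval.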
